A study of Mus musculus with 6 samples.

Results

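The kappa light chain variable segments are the gene segments from which the variable domain of the immunoglobulin kappa light chain is built. They were taken as all genes whose symbol begins with Igkv and a family number, which gave 160 of the 54752 gene identifiers in each table. All 160 lie on chromosome 6 of GRCm38, between 67555497 (the start of Igkv2-137) and 70704177, upstream of the constant gene Igkc (70726435 to 70726966), and fall into 20 families. The annotation calls 100 of them V genes and 60 V pseudogenes. Messenger RNA was measured in pro-B cells sorted from the bone marrow of adult C57BL/6 mice, with 1 library per mouse. The genotype was Skiv2lfl/fl-Cd79a-Cre in 3 mice (Skiv2l-deleted in the following) and Skiv2lfl/fl, with no Cre named, in 3 others (control). The markers used for the sort are not stated. Both groups carry the floxed alleles, so the groups differ in Cre as well as in Skiv2l. The product of Skiv2l is an RNA helicase that, within the SKI complex, delivers RNA to the exosome of the cytosol, and Cd79a-Cre acts in the B lineage from its early stages.

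Each kappa variable segment consists of a leader exon and a variable exon, followed by a recombination signal at which the RAG recombinase joins the segment to a joining segment, Igkj, next to Igkc. In mice the heavy chain is assembled first, in pro-B cells, and most kappa joining takes place later, in small pre-B cells. Unjoined segments can also be transcribed, as so-called germline transcripts. A segment in the same orientation as Igkc joins by deletion of the DNA between, and a segment in the opposite orientation joins by inversion. The deposited value of a segment does not separate joined from germline transcripts, and in bulk samples fewer cells that carry a transcript and less transcript per cell cannot be told apart.

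The segments of a family are close copies. Over the last 280 bases of the annotated transcripts (GENCODE M21, the source of all sequences given here), 74 of the 100 V genes were at least 90% identical to another Igkv segment and 47 were at least 95% identical. Reads can therefore be split between relatives, and sums are more certain than single segments. The family Igkv10, with 3 members, is printed because its members stood far apart in the data. The stretch shown is the variable exon of each, 5′ to 3′, and capitals mark bases that differ from Igkv10-96. Igkv10-94 differed at 16 of 287 bases (94.4% identity) and Igkv10-95 at 18 (93.7%). Igkv10-94 and Igkv10-95 differed from each other at 8 bases and were identical over their last 82.
Igkv10-96 (chr6:68631963-68632249, minus strand): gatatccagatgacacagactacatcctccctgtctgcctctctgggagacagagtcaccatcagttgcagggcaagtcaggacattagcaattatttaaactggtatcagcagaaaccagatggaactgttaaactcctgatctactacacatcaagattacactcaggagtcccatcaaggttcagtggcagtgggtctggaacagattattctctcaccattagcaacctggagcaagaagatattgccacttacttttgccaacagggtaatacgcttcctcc
Igkv10-94 (chr6:68704508-68704794, minus strand): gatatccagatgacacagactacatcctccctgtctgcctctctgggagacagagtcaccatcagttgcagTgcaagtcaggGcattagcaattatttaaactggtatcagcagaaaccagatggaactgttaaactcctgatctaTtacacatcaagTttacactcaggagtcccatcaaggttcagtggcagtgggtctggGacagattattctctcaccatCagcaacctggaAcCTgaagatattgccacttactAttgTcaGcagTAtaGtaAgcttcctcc
Igkv10-95 (chr6:68680562-68680848, plus strand): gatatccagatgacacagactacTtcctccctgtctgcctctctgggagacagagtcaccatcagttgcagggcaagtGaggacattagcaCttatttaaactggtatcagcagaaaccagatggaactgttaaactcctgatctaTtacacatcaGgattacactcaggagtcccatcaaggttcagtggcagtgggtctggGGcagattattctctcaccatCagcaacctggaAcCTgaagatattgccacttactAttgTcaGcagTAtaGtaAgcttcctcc

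The ends of 6 further segments are printed because, among the 12 segments with the highest mean described below, the first 3 had the smallest differences between the groups and the last 3 the largest. Each line holds the last 60 bases of the annotated transcript, and capitals mark the codon of the conserved cysteine at which the third complementarity-determining region begins. The codon was found by a motif of 3 codons, TAC or TAT, then TAC, TAT, TTC or TTT, then TGT or TGC, read on the transcript strand only, which 97 of the 100 V genes (97%) hold in their last 60 bases.
Igkv1-135 (chr6:67610449-67610508, plus strand): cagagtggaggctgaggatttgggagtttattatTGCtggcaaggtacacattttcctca
Igkv19-93 (chr6:68736297-68736356, minus strand): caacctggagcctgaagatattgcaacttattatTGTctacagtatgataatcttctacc
Igkv1-88 (chr6:68862265-68862324, minus strand): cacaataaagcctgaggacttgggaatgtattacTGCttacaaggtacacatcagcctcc
Igkv5-43 (chr6:69823355-69823414, minus strand): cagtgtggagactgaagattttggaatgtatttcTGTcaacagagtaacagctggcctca
Igkv6-15 (chr6:70406469-70406528, minus strand): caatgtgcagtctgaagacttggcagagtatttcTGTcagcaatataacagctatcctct
Igkv4-68 (chr6:69304834-69304893, minus strand): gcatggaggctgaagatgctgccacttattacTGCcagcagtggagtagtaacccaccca

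The aligned bases of a library amounted to 1.74 to 2.40 Gb. Skiv2l stood at 9.53, 16.1 and 10.9 FPKM (fragments mapped to a gene, scaled by its length and by the library's mapped fragments) in Skiv2l-deleted libraries and at 25.4, 20.2 and 46.3 FPKM in controls, and the groups did not overlap, though the difference missed the threshold of 0.05 (log2 fold change −1.21 ± 0.32 SE, limma adjusted p = 0.063). Cd79a, which gives the Cre driver its name and encodes a signalling chain of the B cell receptor, averaged 392 ± 42.55 and 702 ± 53.8 FPKM (SD, n = 3 each) in Skiv2l-deleted and control libraries. All 11 pro-B markers, among them Dntt, Igll1 and Rag1, were expressed in both groups, at summed levels of 3675 to 4771 FPKM in Skiv2l-deleted libraries and 1803 to 2605 FPKM in controls. Markers of myeloid cells set 2 libraries apart, with a sum of 2229 FPKM in Skiv2l-deleted 2 and 1255 FPKM in control 3, against 75.6 to 400 FPKM in the other 4 libraries. The erythroid sum was 199.5 FPKM in Skiv2l-deleted 2 and 2.84 to 7.91 FPKM elsewhere. Of 6 T and NK cell markers (summed 14.1 to 45.3 FPKM in Skiv2l-deleted libraries and 5.73 to 19.0 FPKM in controls), 2 were tested and 1 rose. That was the NK receptor gene Klrb1c, at 11.96, 12.4 and 9.15 FPKM in Skiv2l-deleted libraries and 3.61, 2.44 and 2.65 FPKM in controls (limma adjusted p = 0.00608). Nkg7, a cytotoxic granule gene, reached 30.2 FPKM in Skiv2l-deleted 2 and did not pass, and the T cell genes Cd3e and Cd3d were at or below 0.527 FPKM in all libraries. The T cell receptor gene Trac reached 1.54 FPKM in Skiv2l-deleted 1, against at most 0.540 FPKM in controls. Trbc1, another, reached 1.64 FPKM in Skiv2l-deleted 2, against at most 0.533 FPKM in controls, and neither was tested. The part of these cells in the results was not tested, and values without both libraries follow. Plasma cell markers summed to 475 to 503 FPKM in Skiv2l-deleted libraries and 662 to 910 FPKM in controls. Markers of small pre-B, immature and mature B cells summed to 446 to 587.5 FPKM and 1012 to 1162 FPKM. Genes of both lists went in both directions. Single plasma cell genes and counts for the other list are given below, and the part of such cells was not tested either.

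Transcripts of the kappa variable segments were several-fold less abundant in Skiv2l-deleted libraries. The summed FPKM of all 160 segments was 116, 209 and 195 in Skiv2l-deleted libraries and 811, 698 and 936 in controls. The groups did not overlap. The means were 173 ± 49.9 and 815 ± 119 FPKM (SD, n = 3 each), a 4.70-fold difference (exact two-sided permutation p = 0.1, the smallest that 3 against 3 samples allow). The log2 ratio was −2.23, and −2.28 without control 3 and Skiv2l-deleted 2. The segments made up 0.0232% to 0.0386% of all FPKM in Skiv2l-deleted libraries and 0.139% to 0.170% in controls. Fewer segments reached a fixed FPKM, a count that goes with the lower sum and is not a separate result. At 1 FPKM or more there were 26, 52 and 44 segments in Skiv2l-deleted libraries and 88, 79 and 75 in controls (exact permutation p = 0.1). At 5 FPKM or more there were 4 to 9 against 39 to 52. At 0.1 FPKM or more the means were closer, at 84.3 and 100.7. Of the 160 segments, 43 were listed at 0 in all 6 libraries. Of the other 117, the group mean was lower in Skiv2l-deleted libraries for 110 and higher for 7. The 60 pseudogenes together reached 5.02 ± 1.36 FPKM in Skiv2l-deleted libraries and 10.7 ± 3.25 FPKM in controls.

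The difference was not even along the locus. Ranked by start position, the segments were divided into a distal stretch of 54 (67555497 to 68736780, farthest from Igkc), a middle stretch of 53 (68755038 to 69649363) and a proximal stretch of 53 (69681406 to 70704177). The proximal stretch, which holds the families Igkv3, Igkv5, Igkv6 and Igkv8, summed to 8.66, 28.7 and 25.6 FPKM in Skiv2l-deleted libraries and to 281, 225 and 300 FPKM in controls, a 12.8-fold difference of the means. The distal stretch summed to 64.1, 119 and 115 FPKM in Skiv2l-deleted libraries and to 361, 267 and 417 FPKM in controls, a 3.51-fold difference. The middle stretch, made up mainly of Igkv4 and Igkv13, differed 3.73-fold, with means of 53.1 ± 8.93 and 198 ± 25.8 FPKM (SD, n = 3 each).

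As shares of each library's own kappa variable FPKM, which do not depend on the overall level, the proximal stretch held 7.44%, 13.75% and 13.1% in Skiv2l-deleted libraries and 34.6%, 32.3% and 32.0% in controls. The distal stretch held 55.1%, 56.8% and 59.1% in Skiv2l-deleted libraries and 44.5%, 38.3% and 44.6% in controls. Both shares separated the groups without overlap (exact two-sided permutation p = 0.1 each, the smallest possible), while the share of the middle stretch, 27.8% to 37.5% against 20.9% to 29.4%, overlapped (exact permutation p = 0.2). The same shares were taken over segments without close copies. In the 80 segments in whose transcripts every run of 75 bases was found in no other segment, the proximal share was still 6.19%, 11.6% and 14.9% in Skiv2l-deleted libraries against 36.5%, 33.2% and 21.3% in controls. Their distal share was 42.5%, 48.3% and 50.5% in Skiv2l-deleted libraries against 38.5%, 34.0% and 61.7% in controls, and overlapped. That set leaves out high segments such as Igkv1-135 and Igkv10-96 and holds 37 of the 100 V genes, so shared reads and the choice of segments cannot be told apart there.

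**Figure D1:**
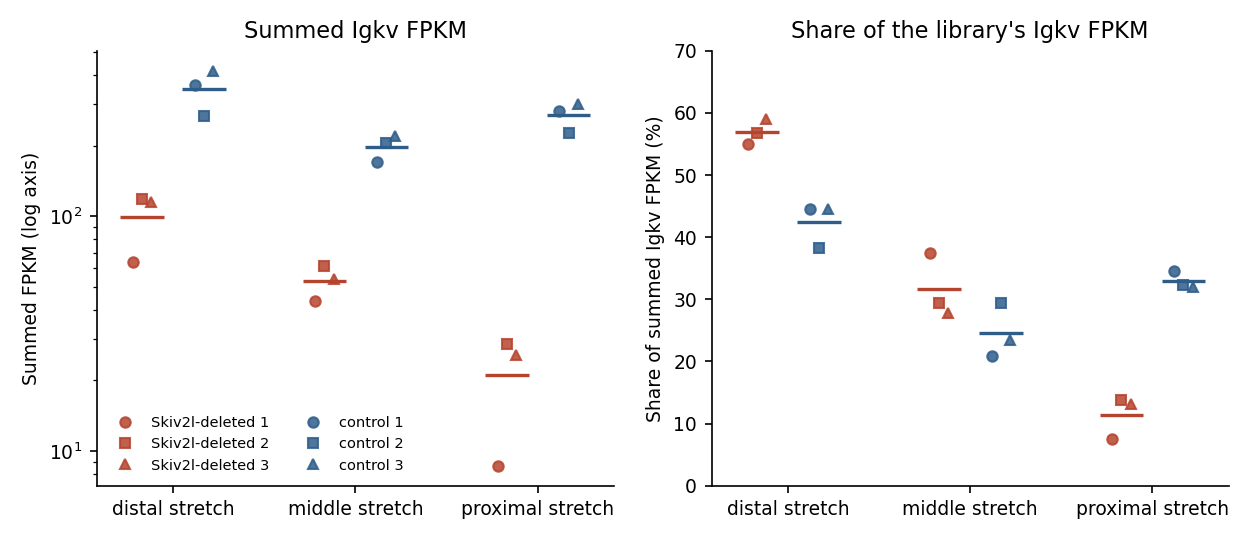
Summed FPKM of the kappa variable segments in the distal, middle and proximal stretch (left, log axis) and each stretch's share of the library's kappa variable FPKM (right, percent). Each symbol is 1 library and each bar a group mean; the proximal share lies at 7.44% to 13.75% in Skiv2l-deleted libraries and at 32.0% to 34.6% in controls.

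Among the 12 segments with the highest mean over all libraries, 3 kept much of their level. Igkv1-135 (67609713 to 67610508), near the distal end, stood at 13.8, 35.9 and 28.1 FPKM in Skiv2l-deleted libraries and at 31.0, 24.8 and 36.6 FPKM in controls, with overlapping groups (log2 fold change −0.32 ± 0.33 SE, limma adjusted p = 0.609, and 0.06 without Skiv2l-deleted 1). Igkv19-93 (68736297 to 68736780), the single member of its family, stood at 11.04, 15.7 and 17.1 FPKM in Skiv2l-deleted libraries and at 29.2, 18.9 and 20.0 FPKM in controls. Its groups did not overlap, but the difference did not pass the threshold (−0.60 ± 0.22, limma adjusted p = 0.147). Igkv1-88 (68862265 to 68863031) stood at 19.3, 13.1 and 18.0 FPKM in Skiv2l-deleted libraries and at 34.1, 41.3 and 12.1 FPKM in controls, where control 3 was the lowest of all 6 libraries. Its log2 fold change of −0.61 did not pass (limma adjusted p = 0.429), but it did without control 3 (−1.13, limma adjusted p = 0.0187). Together these segments, grouped after their values were seen, made up 37.9%, 31.0% and 32.4% of the kappa variable FPKM in Skiv2l-deleted libraries and 11.6%, 12.2% and 7.33% in controls.

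The other 9 of the 12 fell. Ranking by the mean over all libraries favours segments that are high in controls, so this count is a description only. Igkv5-43 (69823355 to 69823943) stood at 0.329, 2.03 and 0.979 FPKM in Skiv2l-deleted libraries and at 28.9, 23.8 and 49.8 FPKM in controls (log2 fold change −4.07 ± 0.37, limma adjusted p = 0.00429). Igkv6-15 (70406469 to 70406992) stood at 0.257, 1.38 and 0.869 FPKM in Skiv2l-deleted libraries and at 22.7, 33.0 and 23.7 FPKM in controls (−3.93 ± 0.26, limma adjusted p = 0.00196). In both, the groups lay far apart, with the highest Skiv2l-deleted library at 2.03 FPKM and the lowest control at 22.7 FPKM. Igkv4-68 (69304834 to 69305405) stood at 0.477, 1.07 and 1.24 FPKM in Skiv2l-deleted libraries and at 10.7, 16.5 and 70.3 FPKM in controls, with control 3 far above the other controls (−3.68 ± 0.62, limma adjusted p = 0.0176, and 0.0777 and 0.0663 without Skiv2l-deleted 1 and 3). The distal segments Igkv1-117, Igkv1-110, Igkv9-124 and Igkv9-120 stood at 1.12 to 7.59 FPKM in Skiv2l-deleted libraries and at 12.7 to 45.0 FPKM in controls, with log2 fold changes of −2.52, −2.28, −2.17 and −2.83. Of these, Igkv1-110 lost its call without control 1 or 2 or Skiv2l-deleted 1 or 3 (highest limma adjusted p = 0.0709).

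**Figure D2:**
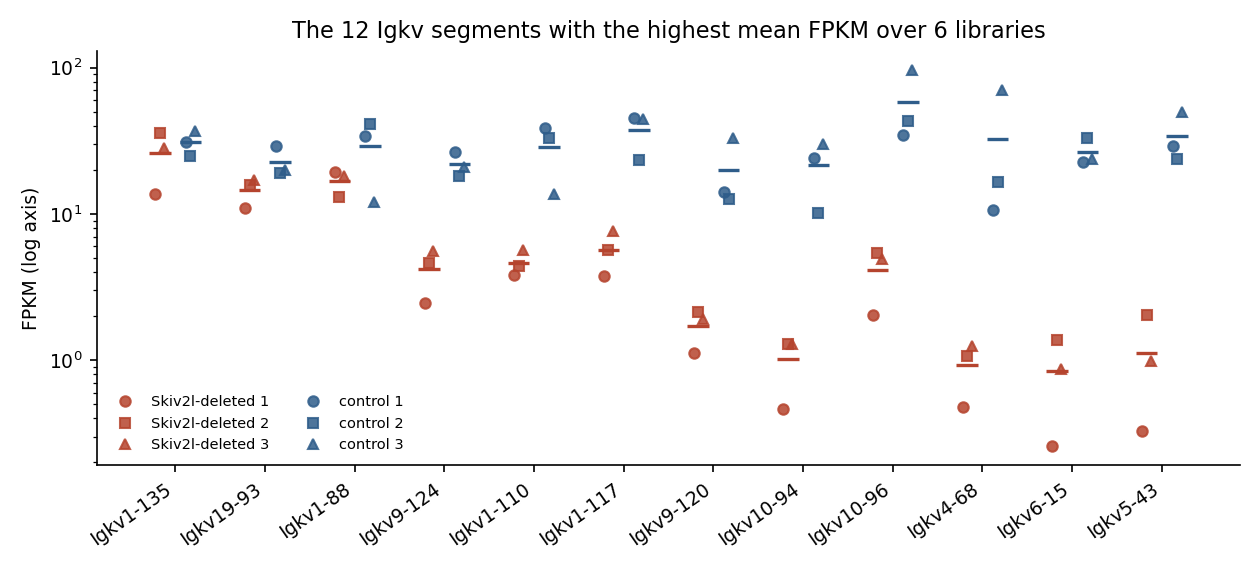
FPKM (log axis) of the 12 kappa variable segments with the highest mean over the 6 libraries, ordered by log2 fold change. Each symbol is 1 library and each bar a group mean; the groups overlap in Igkv1-135 and Igkv1-88, and in Igkv5-43 the values are 0.329 to 2.03 in Skiv2l-deleted libraries and 23.8 to 49.8 in controls.

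The family Igkv10 held both kinds of segment side by side. Igkv10-96 (68631963 to 68632442) stood at 2.02, 5.36 and 4.94 FPKM in Skiv2l-deleted libraries and at 34.4, 43.1 and 96.9 FPKM in controls, and was the highest segment in controls 2 and 3 (log2 fold change −3.46 ± 0.44, limma adjusted p = 0.00862). Igkv10-94 (68704508 to 68704978) stood at 0.463, 1.29 and 1.29 FPKM in Skiv2l-deleted libraries and at 24.2, 10.1 and 30.1 FPKM in controls (−3.38 ± 0.40, limma adjusted p = 0.00744). Igkv10-95 (68680379 to 68680848), which lies between them in the opposite orientation and is the closest copy of Igkv10-94 in the sequences above, stood at 3.73, 4.51 and 5.76 FPKM in Skiv2l-deleted libraries and at 8.77, 5.54 and 5.27 FPKM in controls (−0.39 ± 0.22, limma adjusted p = 0.325). Igkv10-95 was singled out after its values were seen. Within a library, the ratio of Igkv10-95 to Igkv10-94 was 8.07, 3.50 and 4.48 in Skiv2l-deleted libraries and 0.363, 0.549 and 0.175 in controls, while that of Igkv10-96 to Igkv10-94 was 4.38, 4.16 and 3.85 against 1.42, 4.27 and 3.22. The ratio of Igkv10-95 to Igkv10-96 was 1.845, 0.841 and 1.17 in Skiv2l-deleted libraries and 0.255, 0.129 and 0.0544 in controls. Igkv10-95 thus stood above Igkv10-94 in all 3 Skiv2l-deleted libraries and above Igkv10-96 in 2 of them, and below both in every control, while the ranges of the ratio of Igkv10-96 to Igkv10-94 overlapped.

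By family, the sums differed between 22.1-fold and 1.55-fold among the 12 families with a mean of 10 FPKM or more over all 6 libraries. In all 12 the Skiv2l-deleted values were all below the control values. That cut favours families high in controls, so the 12 of 12 is a description only. In Skiv2l-deleted libraries only Igkv1, Igkv4 and Igkv19 averaged 10 FPKM or more (56.7, 30.1 and 14.6). Over all 20 families, without a cut, the Skiv2l-deleted values were all below the control values in 16 (exact permutation p = 0.1 each, 0.125 after Benjamini-Hochberg adjustment over the 20). The largest differences were in 2 proximal families. Igkv6, with 9 segments, summed to 0.480, 4.76 and 4.39 FPKM in Skiv2l-deleted libraries and to 77.8, 74.1 and 60.7 FPKM in controls. Igkv5, with 6 segments, summed to 1.10, 4.86 and 3.49 FPKM in Skiv2l-deleted libraries and to 56.2, 67.9 and 64.6 FPKM in controls, a 20.0-fold difference of the means. The proximal families Igkv3 and Igkv8 and the distal family Igkv10 followed at 9.38-fold, 8.50-fold and 8.80-fold. Igkv12, which has members in all stretches, differed 6.13-fold, Igkv9, 5.71-fold, and Igkv4, the largest family with 33 members, 4.90-fold.

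The smallest differences among these 12 were in distal families. Igkv19 differed 1.55-fold and Igkv1, with 11 of its 13 segments in the distal stretch, 2.38-fold, at 41.9, 64.6 and 63.5 FPKM in Skiv2l-deleted libraries and 164, 129 and 112 FPKM in controls. Igkv14 differed 2.68-fold and Igkv17, 3.38-fold. As shares of the kappa variable FPKM, these 4 families were higher in every Skiv2l-deleted library than in any control (Igkv1 at 31.0% to 36.0% against 11.9% to 20.2%), and Igkv3, Igkv5, Igkv6, Igkv8 and Igkv10 were lower in every Skiv2l-deleted library. Among the 8 families below 10 FPKM, Igkv13 averaged 2.86 and 15.8 FPKM, Igkv16, 2.30 and 15.0, Igkv2, 5.52 and 11.5, Igkv15, 2.18 and 8.53, and Igkv11, 0.435 and 2.48 (Skiv2l-deleted and control), with overlap in Igkv2. Igkv7, Igkv18 and Igkv20, of 1 segment each, were listed at 0 in all Skiv2l-deleted libraries and above 0 in 1 control each.

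**Figure D3:**
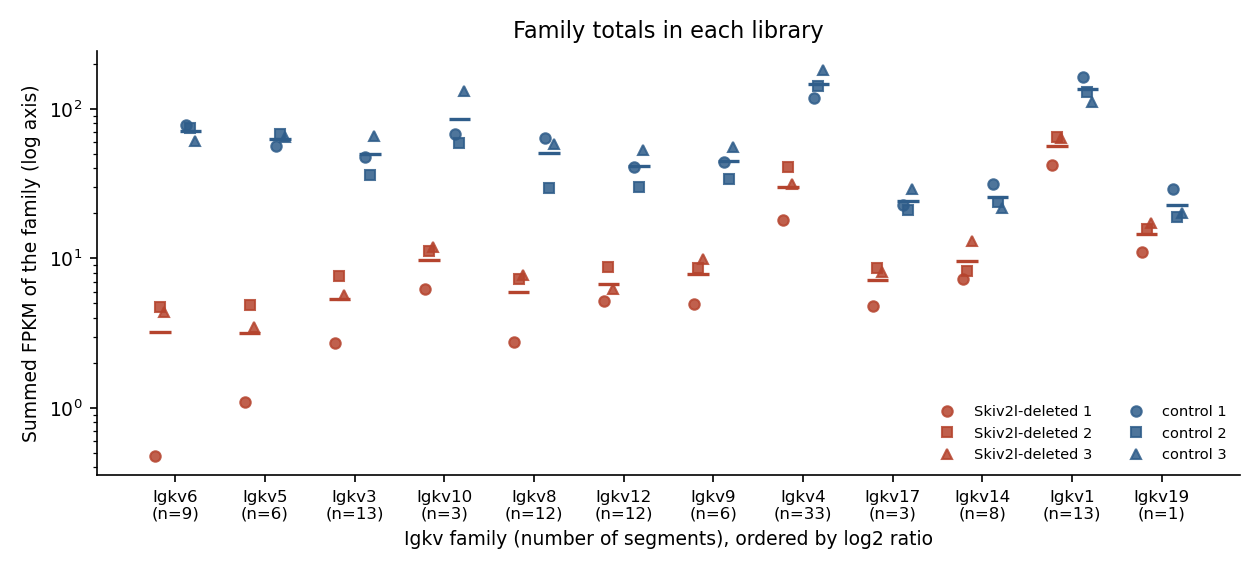
Summed FPKM (log axis) of the 12 kappa variable families with a mean of 10 FPKM or more, with the number of segments of each. Each symbol is 1 library and each bar a group mean; the distance between the groups is widest in Igkv6 (22.1-fold) and narrowest in Igkv19 (1.55-fold).

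Segment by segment, 76 of the 160 were at 1 FPKM or more in at least 3 libraries and were tested with limma on log2(FPKM + 1) in the fit over all 13539 such genes. Of the tested segments 73 were V genes and 3 pseudogenes. The other 84 summed to 7.09 FPKM in Skiv2l-deleted libraries and 37.95 FPKM in controls on average. At an adjusted p below 0.05, 36 of the 76 fell and 0 rose (61 fell and 0 rose at an unadjusted limma p under 0.05), where 8.84% of all genes tested changed and 3.87% fell. In 55 of the 76, the groups did not overlap and Skiv2l-deleted values were the lower, which was so for 12.3% of all genes tested. The filter itself favours such segments, since 16 of the 76 were under 1 FPKM in every Skiv2l-deleted library and entered through the controls, and 0 entered through the Skiv2l-deleted libraries. Only 25 of the 76 were at 1 FPKM or more in every Skiv2l-deleted library, and the rest needed at least 1 control to pass. Omitting control 1 left 15 of 55 tested segments that fell, and omitting control 2 left 19 of 56. Omitting Skiv2l-deleted 1 left 17 of 76, and omitting Skiv2l-deleted 3 left 18 of 75. Calls dropped over all genes as well. With all libraries 524 of 13539 fell. In these omissions 171 of 13318, 236 of 13379, 113 of 13286 and 116 of 13263 fell. With both control 3 and Skiv2l-deleted 2 omitted, 24 of 45 tested segments fell. Those that fell numbered 9 of 24 in the distal, 10 of 26 in the middle and 17 of 26 in the proximal stretch. The filter bears on these counts unequally, since 11 of the 16 segments that entered through the controls were proximal, 4 middle and 1 distal. Among the others, 9 of 23 distal, 8 of 22 middle and 9 of 15 proximal segments fell. Many of these also passed the filter only with the help of controls, and no order of the stretches is read from these counts.

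Of the 10 largest falls, 4 were in segments not yet described, all of them proximal. All 4 were under 1 FPKM in every Skiv2l-deleted library and were tested because of their levels in controls, so their position is a description only. Igkv6-23 stood at 0, 0.703 and 0.490 FPKM in Skiv2l-deleted libraries and at 11.7, 10.4 and 19.8 FPKM in controls (log2 fold change −3.40, limma adjusted p = 0.00429). Igkv3-4 stood at 0, 0.376 and 0.360 FPKM in Skiv2l-deleted libraries and at 6.23, 8.57 and 15.4 FPKM in controls (−3.08, limma adjusted p = 0.00493). Igkv6-25 (−2.97, not called without Skiv2l-deleted 1 or 3, highest limma adjusted p = 0.0761) and Igkv5-45 (−2.84, limma adjusted p = 0.0015) completed the 10 largest. Igkv5-45 and Igkv5-43 are 98.9% identical, so their separate values are uncertain. At the ends of the locus, Igkv2-137, the farthest tested segment, stood at 0.763, 4.23 and 0.535 FPKM in Skiv2l-deleted libraries and at 1.64, 0.465 and 2.46 FPKM in controls (0.03 ± 0.52, limma adjusted p = 0.984). It overlaps the noncoding gene Gm42889 on the same strand. Igkv3-2, the nearest tested segment to Igkc, stood at 0.938, 2.11 and 1.39 FPKM in Skiv2l-deleted libraries and at 12.1, 11.4 and 3.13 FPKM in controls (−1.85 ± 0.45), just outside the threshold (limma adjusted p = 0.0506) and inside it without control 3 (limma adjusted p = 0.00553). Igkv3-1, which lies nearer, was not tested and was listed at 0 in all Skiv2l-deleted libraries and at 2.65, 4.81 and 0.866 FPKM in controls.

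Igkv4-92 was the one other tested segment with a log2 fold change above 0. It stood at 2.06, 5.47 and 3.02 FPKM in Skiv2l-deleted libraries and at 3.20, 1.13 and 0 FPKM in controls (1.05 ± 0.53, limma adjusted p = 0.268). Of the segments that are the highest of their family, Igkv17-121 (−1.50, limma adjusted p = 0.0342) and Igkv8-27 (−1.63, limma adjusted p = 0.0455) fell. Igkv17-121 lost its call in every omission of 1 library except those of control 2 and control 3 (highest limma adjusted p = 0.134), and Igkv8-27 in every omission except that of control 3 (0.161). Igkv12-89 (−0.90), Igkv14-111 (−0.94) and Igkv3-12 (−2.64) did not pass (limma adjusted p = 0.112, 0.114 and 0.0563). Igkv12-89 passed without control 3 (limma adjusted p = 0.0337), and Igkv14-111 and Igkv3-12 passed without control 2 (0.0474 and 0.0268).

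**Figure D4:**
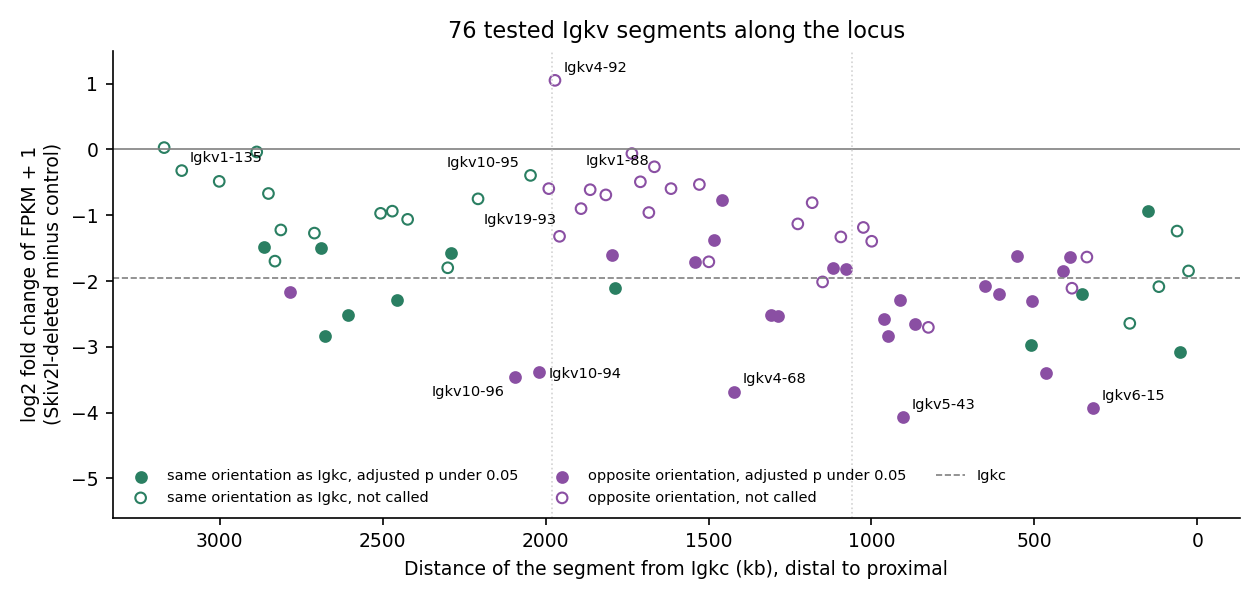
Log2 fold change of FPKM + 1 (Skiv2l-deleted minus control) of the 76 tested kappa variable segments against their distance from Igkc in kb, distal to the left. Filled symbols passed an adjusted p of 0.05 and colour gives the orientation. Dotted lines part the stretches and the dashed line is Igkc (−1.95). In the proximal stretch no tested segment lies above −0.93, while the distal and middle stretches hold segments on both sides of −1. The filter favours this contrast, since 11 proximal, 4 middle and 1 distal segments were under 1 FPKM in every Skiv2l-deleted library. They were tested because of their levels in controls. Others needed controls as well, since only 25 of the 76 reached 1 FPKM in every Skiv2l-deleted library.

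Across the 76 tested segments, the log2 fold change and the distance from Igkc had a Pearson r of 0.42 and a Spearman rho of 0.46 (0.0909 and 0.150 over the 23 segments at 1 FPKM or more in all 6 libraries), given as a description, since segments share libraries, neighbours and, through their copies, reads. Orientation differed too. Segments in the same orientation as Igkc, 75 of the 160, held 44.5%, 48.0% and 48.05% of the kappa variable FPKM in Skiv2l-deleted libraries and 39.0%, 34.4% and 35.5% in controls (exact permutation p = 0.1). Orientation goes with position, as 42 of the 54 distal but 17 of the 53 middle and 16 of the 53 proximal segments had it. Within the distal stretch their share was 74.6% to 75.9% in Skiv2l-deleted libraries and 59.6% to 67.3% in controls (exact permutation p = 0.1). The rest there came mainly from Igkv9-124, Igkv10-96, Igkv10-94 and Igkv19-93. Within the middle stretch the share was 2.20% ± 0.206 in Skiv2l-deleted libraries and 3.95% ± 0.695 in controls (SD, n = 3 each, exact permutation p = 0.1). Most of it was Igkv13-84 (means 0.962 and 7.525 FPKM), which is 97.1% identical to Igkv13-85 in the opposite orientation. No effect of orientation is read from so few segments. Within the proximal stretch the groups overlapped, at 24.2% to 34.1% and 23.7% to 25.7%.

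The kappa variable RNA was spread over fewer segments in Skiv2l-deleted libraries. The effective number of segments (the inverse of the summed squared shares) was 16.0, 20.4 and 20.7 in Skiv2l-deleted libraries and 45.0, 37.9 and 28.1 in controls, without overlap (exact permutation p = 0.1). The highest segment held 16.6% (Igkv1-88), 17.2% and 14.4% (both Igkv1-135) in Skiv2l-deleted libraries. In controls it held 5.55% (Igkv1-117), 6.17% and 10.35% (both Igkv10-96). Across all 160 segments, the Pearson r of log2(FPKM + 1) between libraries was 0.881 to 0.923 among Skiv2l-deleted libraries, 0.828 to 0.919 among controls and 0.592 to 0.792 between the groups, where many segments at 0 in both libraries raise the values. Over the 76 tested segments r was 0.879 to 0.909, 0.579 to 0.790 and 0.357 to 0.585 for the same 3 sets of pairs.

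The constant gene Igkc, which encodes the constant domain of the kappa chain, was also lower in Skiv2l-deleted libraries. It stood at 340, 592 and 552 FPKM in Skiv2l-deleted libraries and at 1859, 1584 and 2205 FPKM in controls, and fell (log2 fold change −1.95 ± 0.24, limma adjusted p = 0.00807). The summed variable FPKM per FPKM of Igkc was 0.343, 0.352 and 0.354 in Skiv2l-deleted libraries and 0.436, 0.441 and 0.425 in controls. The ratio varied little within a group and separated the groups (means 0.350 ± 0.00595 and 0.434 ± 0.00819, SD, n = 3 each, exact permutation p = 0.1). The direction depended on the segments counted. Over the 80 segments without shared runs of 75 bases, the ratio was 0.167, 0.127 and 0.142 in Skiv2l-deleted libraries and 0.130, 0.128 and 0.0699 in controls, higher on average in Skiv2l-deleted libraries and with overlap. Of the joining segments, Igkj1 (−1.69), Igkj2 (−2.37), Igkj4 (−1.59) and Igkj5 (−2.12) fell, and Igkj3, which is not used in functional mouse kappa chains, did not pass (−0.59, limma adjusted p = 0.417). Igkj5 lost its call in 3 of 6 omissions. The heavy chain variable segments summed to 377, 344 and 256.5 FPKM in Skiv2l-deleted libraries and to 1647, 1580 and 1112 FPKM in controls. That was a 4.44-fold difference of the means, without overlap. The ratio of the kappa variable sum to this sum was 0.309, 0.607 and 0.761 in Skiv2l-deleted libraries. In controls it was 0.492, 0.442 and 0.842, and it did not separate the groups (exact permutation p = 0.9).

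Markers of other B lineage stages differed between the groups in both directions. Of 10 plasma cell markers, 8 were tested, 3 fell and 1 rose, where 3.87% of all genes tested fell and 4.97% rose. The joining chain gene Jchain stood at 0, 0.233 and 0.0821 FPKM in Skiv2l-deleted libraries and at 44.5, 36.9 and 75.2 FPKM in controls. The IgA constant gene Igha stood at 0.302, 0 and 0.0845 FPKM in Skiv2l-deleted libraries and at 216, 164 and 380 FPKM in controls. The syndecan gene Sdc1 fell (−1.29) and the chaperone gene Mzb1 rose (0.53, limma adjusted p = 0.05 when rounded), with calls in 2 and 1 of 6 omissions. Jchain and Igha were called in the 3 omissions that left them above the filter, and were not tested where a control was omitted. Derl3, Fkbp11, Xbp1 and Irf4 did not pass (limma adjusted p of 0.143, 0.962, 0.51 and 0.0636). The receptor gene Tnfrsf17 was listed at 0 in all Skiv2l-deleted libraries and at 0.348 to 0.538 FPKM in controls, and the transcription factor Prdm1 was under 1 FPKM in all 6 libraries. The summed plasma cell list was 475 to 503 FPKM in Skiv2l-deleted libraries and 662 to 910 FPKM in controls. Of 15 markers of small pre-B, immature and mature B cells, 14 were tested, 10 fell and 1 rose (summed 446 to 587.5 FPKM against 1012 to 1162 FPKM). Omission of 1 library left 3 to 9 that fell, the fewest without control 1. In that fit 171 of all 13318 genes tested fell, against 524 of 13539 with all libraries. Of the 11 pro-B markers, 7 rose and 0 fell. Omission of 1 library left 0 to 7 that rose. There were 0 without Skiv2l-deleted 1 or 3, 1 without control 1 and 3 without control 2 or Skiv2l-deleted 2. Of all genes tested, 673 rose with all libraries, but 71 and 63 without Skiv2l-deleted 1 or 3. Without control 1, control 2 or Skiv2l-deleted 2, 210, 239 and 356 of all genes rose. The part of cells of these stages in the kappa variable values was not tested.

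Genes that act on the kappa locus or on its recombination changed in both directions in the fit used here, though the rises depended on its settings. Of 40 listed genes, 5 of them also pro-B markers, all were tested, 3 rose, 4 fell and 33 did not pass (7 of 40 changed, against 8.84% of all genes tested), and their median log2 fold change was −0.09, against 0.06 over all genes tested. The recombinase genes Rag1 (184 ± 12.4 and 110 ± 25.9 FPKM in Skiv2l-deleted and control libraries, SD, n = 3 each) and Rag2 (59.0 ± 5.28 and 42.4 ± 0.851 FPKM) and the forkhead factor Foxo3 (12.9 ± 0.484 and 8.92 ± 0.556 FPKM) rose, with limma adjusted p-values of 0.0489, 0.0401 and 0.0411. Those that fell were Brwd1, a chromatin reader that opens the mouse kappa joining region (4.97 ± 0.674 and 12.2 ± 2.71 FPKM, limma adjusted p = 0.0144), the ETS factor Spib (139 ± 28.4 and 358 ± 84.8 FPKM, 0.016), the pre-B receptor kinase Syk (164 ± 33.6 and 288 ± 20.9 FPKM, 0.0282) and the histone methyltransferase Ezh2 (247 ± 8.84 and 345 ± 18.75 FPKM, 0.0297). Omission of 1 library left 0 to 3 that rose and 0 to 11 that fell. The 11 fell without control 3, where 729 of all genes tested fell. Without Skiv2l-deleted 1 there were 0 of either, where 71 of all genes tested rose and 113 fell. With all libraries but TPM as the unit, 0 rose and 4 fell, where 583 of all genes tested rose. Rescaling to FPKM outside antigen receptor segments also left 0 that rose and 4 that fell, where 557 of all genes rose. With the replicate number as a block, 0 rose and 1 fell, where 185 of all genes rose. Without a filter there were 0 of either, where 280 of all genes rose. Single omissions left Brwd1 called in 4 of 6 cases, Spib in 3, Syk in 2, and Rag1, Rag2, Foxo3 and Ezh2 in 1. Irf4, an activator of the kappa enhancers, stood at 72.1, 67.9 and 79.7 FPKM in Skiv2l-deleted libraries and at 153, 151 and 90.4 FPKM in controls and did not pass (−0.80 ± 0.21, limma adjusted p = 0.0636), but it passed in 1 of 6 omissions.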

How the data were processed

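The authors deposited 1 table per mouse that lists FPKM, TPM and mean coverage (a signal per base), per the file headers. Coordinates follow GRCm38, as named in the submitters' processing notes. Not given in the sources used here are which aligner and quantification tool were run, whether strand was used, and how reads that match several segments were treated. Libraries were made strand-specific from RNA purified with an RNeasy kit, per the labels' protocols. Each table holds 54752 identifiers. The 7 to 9 that stand on several lines were summed, and 0 of them were kappa variable segments. All 160 segments had the same coordinates in GENCODE M21.

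The tables hold no read counts, so no count model was used. Total aligned bases were computed as coverage over FPKM. The fit, made with limma 3.58.1 (R 4.3.3, lmFit and eBayes with a trend) on log2(FPKM + 1), took all genes that reached 1 FPKM in 3 or more libraries, genotype being the only term, with Benjamini-Hochberg adjustment over all genes tested. A log2 fold change is the Skiv2l-deleted mean less the control mean on that scale, which understates the change of low segments. The fit was tested on simulated data. Sums, shares and ratios were compared with exact two-sided permutation tests over the 6 samples. In all tests the unit is the mouse, with 1 library each. The limma p-values set a difference against a spread between mice that is moderated over all genes. The exact permutation p-value is 0.1 whenever the groups do not overlap, however wide the gap, and does not measure that spread. A value of 0 is a value as listed. Named segments were the 12 highest by mean, the 10 largest changes among those called, all tested segments above 0, both ends of the locus, the highest of each family at 10 FPKM or more and the highest in each control, with Igkc, the joining segments, Skiv2l, Cd79a, the plasma cell markers and the called genes of the recombination list. The alternatives were other pseudocounts, filters and units, a replicate block, omission of libraries and narrower sets of segments, of which the set without shared runs of 75 bases, like the proximal share, was chosen after seeing the data. The members and gene lists were chosen with earlier results of these data known.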

Additional observations from a re-analysis of the deposited data

How the results depend on the processing

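The count of kappa variable segments that fell, 36, was between 24 and 37 under a pseudocount of 0.1, a filter of 0.3 FPKM, no trend, TPM, rescaling to FPKM outside antigen receptor segments, a replicate block and the omission of control 3 with Skiv2l-deleted 2. Without a filter on low values, with 28354 genes tested in place of 13539, it was 18. Leaving out 1 library gave 15 (of 55 tested) to 35 (of 57 tested), while 113 to 729 of all genes tested fell. No alternative called a segment higher. The labels do not say that equal replicate numbers pair mice, and the deviations of same-numbered libraries from their group means correlated at 0.0939, −0.429 and −0.355, every library correlating best with one of another number. With the replicate block 26 segments fell and 365 of all genes were called in place of 1197.

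The log2 ratio of the summed segments, −2.23, ranged from −2.39 to −2.01 when 1 library was left out and was −1.51 in the 80 segments free of shared runs of 75 bases, a set chosen after seeing the data that holds 37 of the 100 V genes. The distal share differed by 14.5 percentage points (12.5 to 15.6 in the omissions), by 17.5 without each library's highest segment and by 2.38 in that set of 80. The cause was not tested. The proximal share, a measure added after seeing the data, differed by −21.5 points and by −23.2 to −19.5 over its alternatives. The number of segments at 1 FPKM or more differed by −40 (−45.7 to −32.7 in the omissions), and that at 0.1 FPKM or more by −16.3. The log2 ratio of variable to constant FPKM, −0.31, was between −0.33 and −0.30 with TPM, the replicate block and the omissions, which can hardly move it. It turned to 0.412 in the set of 80 segments, where the groups overlapped. Among 24 named segments, 275 of the alternative values kept the direction and side of the threshold, 26 lost and 9 gained a call, and 3 changed sign without a call: Igkv1-135 without Skiv2l-deleted 1 (0.0608, range of the omissions −0.599 to 0.0608), and Igkv2-137 with a pseudocount of 0.1 (−0.0271) and without control 2 (−0.320, range −0.320 to 0.356). Low depth limits single segments: the 76 tested segments had a median of 763 aligned bases in Skiv2l-deleted libraries and 4849 in controls (group means, from coverage), and the number of reads is not given.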
